A study of Mus musculus with 16 samples.

Results

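Macrophage and myeloid marker genes were described in pituitary glands of mouse embryos that lack Insm1, a zinc finger protein that regulates transcription as endocrine and neuronal cells differentiate. The set held 29 genes of the 16593 genes named on the arrays. They were picked by name as markers, with earlier results of these data known. It was divided by known cell type into 21 macrophage and myeloid genes, 2 neutrophil genes and 6 genes shared by most leukocytes. Mutants were homozygous (Insm1 -/-, n = 6) and controls heterozygous (Insm1 +/-, n = 10), all of the strain C57/BL6;129Ola mixed and at embryonic day 17.5. The controls thus carry 1 mutant Insm1 allele, and the labels do not say whether a sample held the gland of 1 embryo or a pool. Whole glands were measured, so fewer cells of a type and less RNA per cell cannot be told apart.

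Median raw intensity lay between 96.5 and 132 on the mutant arrays and between 102 and 122 on the control arrays, and detected probes numbered 12928 to 13671 in mutants and 12892 to 14156 in controls. Levels below are log2 intensities after normalisation and changes are mutant minus control on that log2 scale; levels of different probes are not comparable with each other. A gene was called when its limma adjusted p, taken over all 13813 kept probes, was under 0.05. The Insm1 probe was 0.36 higher in mutants (SE 0.10, limma adjusted p = 0.0134), reading 11.78 ± 0.23 in mutants against 11.42 ± 0.18 in controls (SD, n = 6 and n = 10), so it did not check the labels. The hormone gene Gh was detected on all arrays and fell by 6.75 (limma adjusted p = 9.02e-09). Control 10 stood apart through skeletal muscle genes. The arrays were assigned to 2 slides by the leading number of their sample names, which is not itself labelled as a slide. On this reading, mutants numbered 4 on slide 1 and 2 on slide 2, while controls numbered 4 on slide 1 and 6 on slide 2.

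Macrophages of a fetal organ derive from yolk sac and fetal liver progenitors, settle before birth and clear dying cells. They are recognised by complement C1q, lysozyme, Fc receptors and receptors that signal through the adaptor Tyrobp. Neutrophils circulate in the blood and carry the calcium-binding proteins S100a8 and S100a9 as abundant cytosolic proteins.

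Probes were named for 26 of the 29 genes, and Cd68, Csf1r and Mpeg1 were not analysed here. The probes of 5 genes were not above background on any array: Itgam and Itgb2, the chains of the integrin Mac-1, Ptprc, the leukocyte phosphatase CD45, Cybb, the catalytic subunit of the phagocyte oxidase, and Fcer1g, an Fc receptor signalling chain. The remaining 21 genes were tested, and 19 of them were detected on all 16 arrays. Cd14 was detected in 5 mutants and 3 controls, and Lcp1 in 5 mutants and 7 controls. The marker set was thus detected in the glands of both genotypes, but its most general leukocyte gene, Ptprc, was not.

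Of the 21 tested genes, 11 were higher in mutants and 0 were lower (0 also at an unadjusted p under 0.05 in limma), and 10 were not called. Across all 9682 genes tested, 15.9% were higher in mutants and 14.0% were lower (29.9% in either direction). The called genes were S100a8, S100a9, Lyz2, Tyrobp, Aif1, Trem2, Fcgr3, C1qa, C1qb, C1qc and Laptm5. The change was above 0 for all 21 genes, with a median of 0.39 and a range from 0.05 to 1.58, against a median of 0.03 and 55.4% of changes above 0 over all genes tested. In 4 of the 21 genes (S100a8, S100a9, Tyrobp and C1qc) every mutant lay above every control, which held for 3.94% of all genes tested; every mutant lay below every control for none of the 21 and for 5.26% of all genes.

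**Figure D1:**
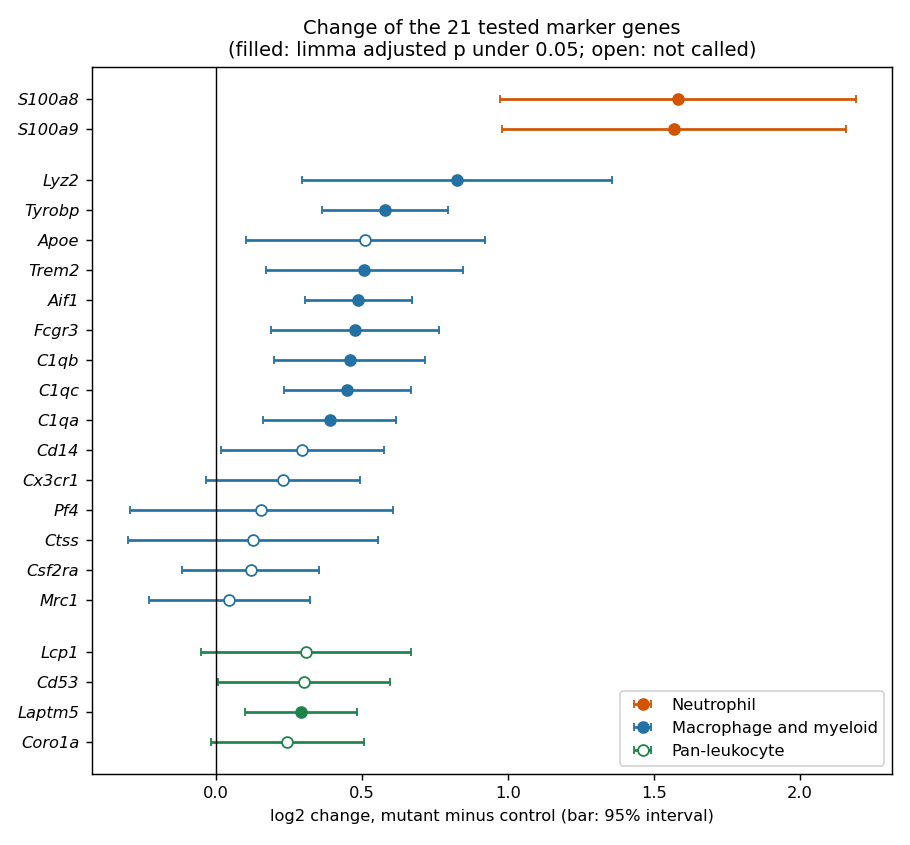
The plot gives the log2 change, mutant minus control, of each of the 21 tested marker genes with its 95% interval, grouped into neutrophil, macrophage and myeloid, and pan-leukocyte genes. Filled points were called by limma (adjusted p under 0.05), and S100a8 and S100a9 lie at 1.58 and 1.57, right of the remaining genes.

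The neutrophil pair had the largest changes of the set. S100a8 read 9.52, 10.01 and 11.59 (lowest, median and highest) in mutants, against 7.90, 8.62 and 9.51 in controls. S100a9, its partner in the heterodimer calprotectin, read 8.34, 8.69 and 10.38 in mutants, against 6.74, 7.51 and 8.10 in controls. The groups did not overlap for either gene, but the margin for S100a8 was narrow, with mutant 2 at 9.52 beside control 2 at 9.51. Mutant 3 was the highest sample for both genes.

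S100a8 averaged 10.24 ± 0.73 in mutants and 8.66 ± 0.56 in controls (SD, n = 6 and n = 10), which is 1.58 higher (SE 0.29, limma adjusted p = 0.000447) or 3.00-fold. S100a9 averaged 8.98 ± 0.76 in mutants and 7.41 ± 0.50 in controls, which is 1.57 higher (SE 0.28, limma adjusted p = 0.000349) or 2.97-fold. Both were also called within each slide: S100a8 by 1.57 on slide 1 and 1.39 on slide 2, and S100a9 by 1.77 and 1.16. Without mutant 3 the changes were 1.31 for S100a8 and 1.29 for S100a9 (limma adjusted p = 0.000814 and 0.000445).

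**Figure D2:**
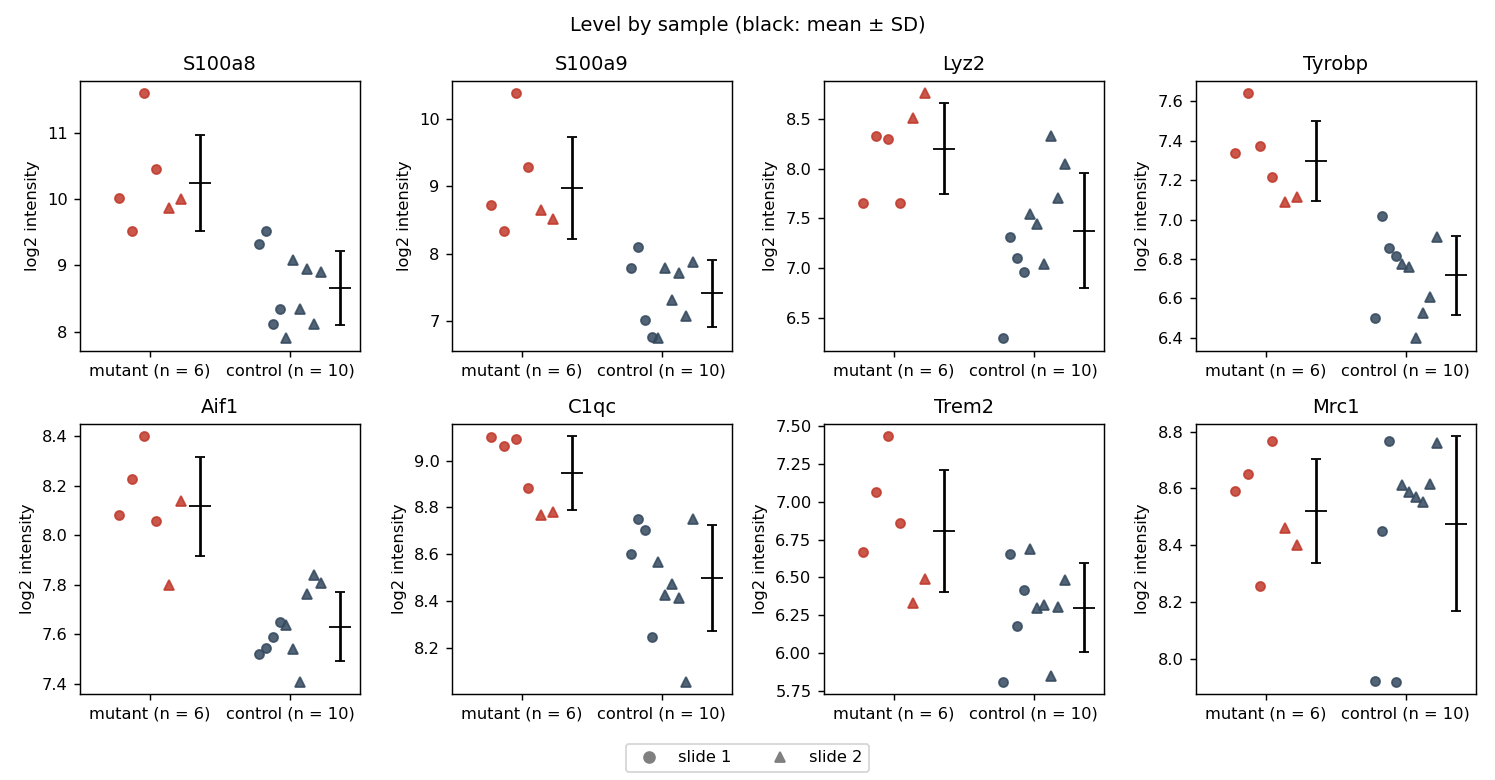
Each panel gives the log2 intensity of 1 gene in every sample, mutants left and controls right, with the mean and SD in black and the slide by symbol. All 6 mutants lie above all 10 controls for S100a8, S100a9, Tyrobp and C1qc, while the groups overlap for Lyz2, Aif1, Trem2 and Mrc1.

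S100a8 and S100a9 are neighbours on chromosome 3. Of the 9 S100 genes tested, all on chromosome 3, 3 were higher and 0 lower, against 15.9% higher and 14.0% lower over all genes tested. This count includes the pair that prompted it, so it supports nothing about the family. The gene called besides the pair was S100a6, a calcium-binding protein widely expressed outside the blood. It rose by 0.71 (SE 0.10, limma adjusted p = 4.18e-05) and was looked up after the values of the pair had been seen. The 250 bases before the start site of the pair, from RefSeq (GRCm38.p6), are printed because the genes lie side by side and changed by similar amounts. Capitals mark GAGGAA or its reverse complement TTCCTC, the core bound by the myeloid factor PU.1, and TTGCNNAA, a core bound by C/EBP factors. S100a8 lies on the plus strand, chr3:90668821-90669070, and S100a9 on the minus strand, chr3:90695722-90695971.
S100a8: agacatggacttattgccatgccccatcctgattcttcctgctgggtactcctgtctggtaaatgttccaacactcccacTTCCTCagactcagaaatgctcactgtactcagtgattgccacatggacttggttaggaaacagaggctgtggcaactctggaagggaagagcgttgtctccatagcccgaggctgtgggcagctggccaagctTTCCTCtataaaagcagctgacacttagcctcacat
S100a9: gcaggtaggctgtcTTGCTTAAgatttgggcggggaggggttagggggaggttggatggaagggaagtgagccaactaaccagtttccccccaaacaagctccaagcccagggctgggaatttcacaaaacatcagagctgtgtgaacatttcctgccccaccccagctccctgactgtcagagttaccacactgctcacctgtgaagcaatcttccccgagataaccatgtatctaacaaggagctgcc
The S100a8 window held the PU.1 core at 170 and 36 bases before the start and no C/EBP core, and the S100a9 window held a C/EBP core at 236 bases and no PU.1 core.

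Other neutrophil genes were read from a list of 17 granule and surface genes. A probe was named for 16, and 6 of these were not above background on any array: Elane, Mpo, Ctsg, Cxcr2, Fcnb and Mmp8. Of the 7 tested, 5 were higher in mutants and 0 lower, with a median change of 1.18. Lcn2, Ltf, Camp and Retnlg were detected on all 6 mutant arrays but on only 6, 5, 5 and 2 of the 10 control arrays. They thus passed the detection filter largely through the mutants, and the count and median of this list support nothing. Requiring detection on all 16 arrays left 1 called gene.

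Stfa1, a cystatin of neutrophils, was detected on all arrays and averaged 9.49 ± 1.14 in mutants and 7.97 ± 0.43 in controls, which is 1.52 higher (SE 0.35, limma adjusted p = 0.00333). Its call was lost on slide 1 alone (limma adjusted p = 0.0521) and on slide 2 alone (0.0607). Without mutant 3 the Stfa1 change was 1.14 (limma adjusted p = 0.00456). Retnlg, a resistin-like protein, averaged 6.32 ± 0.48 in mutants and 5.14 ± 0.33 in controls (rise 1.18, limma adjusted p = 9.76e-05), and Lcn2, the iron-scavenging lipocalin, 6.93 ± 0.74 in mutants and 5.68 ± 0.51 in controls (rise 1.25, limma adjusted p = 0.00239). Outside the rule for named genes, and named after their values were seen, Ltf (lactoferrin) rose by 1.48 and Camp (cathelicidin) by 1.03. Mutant 3 weighed on the size of the Camp change, which was 0.64 without it (limma adjusted p = 0.00137). Prtn3 and Mmp9, proteases of neutrophil granules, had changes of 0.28 and 0.20 and were not called.

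Genes of red blood cells were set beside the neutrophil genes because both cell types circulate in blood. Of 8 erythroid genes tested, 0 were called by limma, with 1 at an unadjusted p under 0.05 and a median change of 0.17. Without mutant 2 or control 1, 1 was called. Hba-a1, named after its values were seen, read 15.46 in every mutant and as the control median and maximum. That is the upper limit of the scale, so its probe could not show a rise. Per sample, the median erythroid difference from the control mean lay between -0.15 and 0.40 for mutants, against -0.47 and 0.24 for controls, while that of the S100a8 and S100a9 pair lay between 0.90 and 2.95 for mutants, against -0.72 and 0.77 for controls. By this erythroid measure mutants 1, 3 and 4 lay below the control mean (-0.11, -0.08 and -0.15) and mutant 2 above it (0.18). Mutants 5 and 6, both on slide 2, lay at 0.40 and 0.40, above the highest control. Mutant 3 was the highest for the pair. The change was above 0 for 7 of the 8 erythroid genes. On slide 2 alone the erythroid genes Klf1 and Alas2 were called, at 0.65 and 0.58 (limma adjusted p = 0.0431 and 0.0460; named after their values were seen). The part of blood in the neutrophil changes was not tested.

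Tyrobp, Trem2 and Fcgr3, an adaptor and 2 receptors of phagocytes, were called higher in mutants. Tyrobp, the adaptor also called DAP12, read 7.09, 7.28 and 7.64 (lowest, median and highest) in mutants, against 6.40, 6.77 and 7.02 in controls. All mutants lay above all controls, and the change was 0.58 (SE 0.10, limma adjusted p = 0.000327) or 1.49-fold. Trem2, a lipid-sensing receptor that signals through Tyrobp, read 6.33, 6.76 and 7.43 in mutants, against 5.81, 6.31 and 6.69 in controls. Only 3 of the 6 mutants exceeded the highest control for Trem2, and the change was 0.51 (SE 0.16, limma adjusted p = 0.0244). Trem2 differed between slides, with 0.74 on slide 1 and 0.09 on slide 2, but the genotype by slide term of -0.65 had an unadjusted p of 0.0460 and an adjusted p of 0.999 in limma. Its call was lost without mutant 2 (limma adjusted p = 0.0644) or mutant 3 (0.0717).

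Fcgr3, the activating IgG receptor CD16, read 8.06, 8.29 and 8.55 in mutants, against 7.33, 7.94 and 8.20 in controls. The highest control was control 10, 4 mutants exceeded it, and the change was 0.48 (SE 0.14, limma adjusted p = 0.0148). Fcgr4 is the gene beside Fcgr3 in the genome and resembles it in sequence, so signal shared by the probe cannot be separated; the probe of Fcgr4 rose by 0.73 (limma adjusted p = 0.00224), a gene named after its values were seen.

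Aif1, the actin-bundling protein IBA1 used to stain macrophages and microglia, read 7.80, 8.11 and 8.40 in mutants, against 7.41, 7.61 and 7.84 in controls. Mutant 5 fell just under the highest control and the other mutants lay above it, with a change of 0.49 (SE 0.087, limma adjusted p = 0.000361) or 1.40-fold. Another Aif1 probe was also called, at 0.67 (SE 0.13, limma adjusted p = 0.000981), and one more was not above background on any array.

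Complement C1q starts the classical complement cascade, and its A, B and C chains are encoded side by side on chromosome 4. C1qc read 8.77, 8.97 and 9.10 in mutants, against 8.05, 8.52 and 8.75 in controls. C1qb read 8.88, 9.32 and 9.38 in mutants, against 8.33, 8.76 and 9.33 in controls. The groups did not overlap for C1qc, whereas 3 mutants exceeded the highest control for C1qb.

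C1qa read 6.40, 6.74 and 6.84 in mutants, against 5.88, 6.25 and 6.58 in controls, with 4 mutants above the highest control. The changes of the chains were close to each other: 0.45 for C1qc (SE 0.10, limma adjusted p = 0.00314), 0.46 for C1qb (SE 0.12, limma adjusted p = 0.00973) and 0.39 for C1qa (SE 0.11, limma adjusted p = 0.0119). The windows before C1qb and C1qc, both on the minus strand, are printed for the same reason as those of the S100 pair, with the same capitals; C1qb lies at chr4:136886201-136886450 and C1qc at chr4:136892915-136893164.
C1qb: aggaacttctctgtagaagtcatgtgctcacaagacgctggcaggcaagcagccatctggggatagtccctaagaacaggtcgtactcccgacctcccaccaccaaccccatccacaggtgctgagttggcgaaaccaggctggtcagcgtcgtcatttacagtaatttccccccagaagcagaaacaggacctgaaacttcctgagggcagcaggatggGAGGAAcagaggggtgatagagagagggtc
C1qc: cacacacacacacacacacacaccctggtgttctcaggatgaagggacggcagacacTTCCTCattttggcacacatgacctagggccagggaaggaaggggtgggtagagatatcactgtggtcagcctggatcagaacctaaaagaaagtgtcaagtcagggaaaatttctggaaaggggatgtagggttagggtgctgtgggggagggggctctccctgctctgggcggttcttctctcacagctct
C1qb held the PU.1 core at 30 bases before the start and C1qc at 193 bases, on opposite strands. Of 4 other complement genes tested, 0 were called by limma and 0 had an unadjusted p under 0.05, with a median change of 0.06.

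Lyz2, the lysozyme of macrophages and neutrophils, read 7.65, 8.32 and 8.76 in mutants, against 6.29, 7.37 and 8.33 in controls. The groups overlapped, with 3 mutants above the highest control, and the change was 0.83 (SE 0.25, limma adjusted p = 0.0202) or 1.77-fold, the largest among the macrophage and myeloid genes tested. Another Lyz2 probe rose by 0.79 with no overlap (limma adjusted p = 0.00287), and one more was not above background. The call of the first probe was lost without mutant 6 (limma adjusted p = 0.0529). Lyz1, the neighbouring gene, is a close copy, so the signal of these probes cannot be assigned to Lyz2 alone. Because neutrophils also express Lyz2, it does not separate the cell types.

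The remaining macrophage and myeloid genes tested, Apoe, Cd14, Cx3cr1, Mrc1, Pf4, Ctss and Csf2ra, were not called. Apoe, the lipid carrier apolipoprotein E, read 8.63, 9.06 and 9.86 in mutants, against 7.89, 8.65 and 9.34 in controls, a change of 0.51 (95% interval 0.10 to 0.92, limma adjusted p = 0.0595). Cd14, the lipopolysaccharide co-receptor, had a change of 0.30 (95% interval 0.02 to 0.57, limma adjusted p = 0.110). Both sets of values overlapped between the groups.

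Cx3cr1, the fractalkine receptor, read 7.54, 8.17 and 8.47 in mutants, against 7.64, 7.89 and 8.17 in controls, a change of 0.23 (95% interval -0.03 to 0.49, limma adjusted p = 0.194). Mrc1, the mannose receptor CD206 of tissue-resident macrophages, read 8.26, 8.53 and 8.77 in mutants, against 7.92, 8.58 and 8.77 in controls, a change of 0.05 (95% interval -0.23 to 0.32, limma adjusted p = 0.835). Mutant and control ranges of Mrc1 nearly coincided, and its interval lay below the changes of Tyrobp and Lyz2. The difference between Mrc1 and those genes was not tested. The remaining changes were 0.16 for Pf4, a platelet chemokine also made by macrophages (95% interval -0.30 to 0.61), 0.13 for the lysosomal protease Ctss (95% interval -0.30 to 0.56) and 0.12 for Csf2ra, the receptor chain for GM-CSF (95% interval -0.12 to 0.35), with limma adjusted p = 0.641, 0.692 and 0.473.

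**Figure D3:**
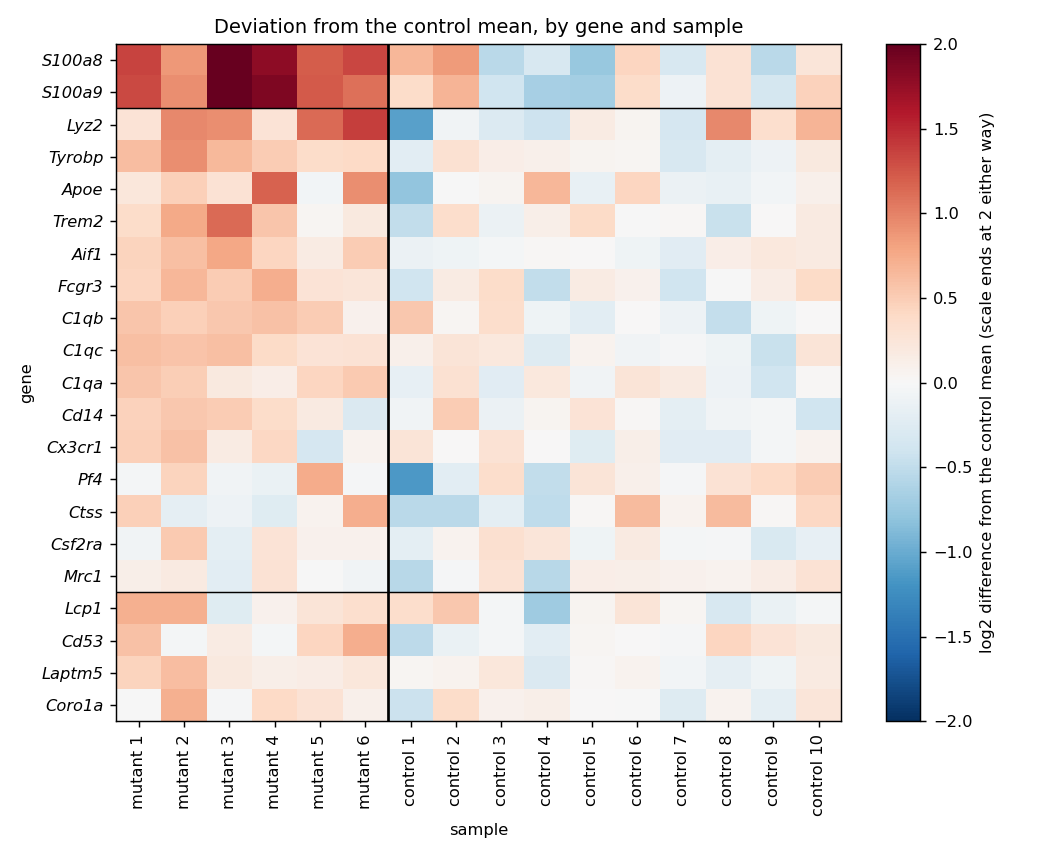
The map gives, for each tested marker gene (rows) and sample (columns, mutants left), the log2 difference from the control mean; red is higher, blue lower, and the colour scale ends at 2. The S100a8 and S100a9 rows are red in all 6 mutants, the rows from Tyrobp to C1qa mostly so, and the rows from Cd14 to Mrc1 are mixed.

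Among the genes shared by most leukocytes, 1 of 4 tested was called. Laptm5, a lysosomal membrane protein of blood cells, read 10.98, 11.08 and 11.49 in mutants, against 10.58, 10.90 and 11.09 in controls. Of the mutants, 3 lay above the highest control, and the change of 0.29 (SE 0.091, limma adjusted p = 0.0236) was lost without mutant 1 (limma adjusted p = 0.0587), without mutant 2 (0.0732) or after median scaling (0.0509). Cd53, a leukocyte tetraspanin, had a change of 0.30 (limma adjusted p = 0.121), which became 0.41 in the fit blocked by slide (limma adjusted p = 0.0110). Lcp1, the actin-bundling L-plastin, had a change of 0.31 (limma adjusted p = 0.200). Coro1a, an actin regulator of leukocytes, had a change of 0.24 by its brightest probe (limma adjusted p = 0.164). The other probes tested gave 0.36 and 0.37 and were called (limma adjusted p = 0.0187 and 0.0200). The probe at 0.36 was detected in 5 mutants and 3 controls. It passed the filter largely through the mutants, so its call supports nothing. A further probe, detected in 1 mutant and 3 controls, was not kept.

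By class, 8 of 15 macrophage and myeloid genes were called higher (median change 0.45), 2 of 2 neutrophil genes (median 1.58) and 1 of 4 pan-leukocyte genes (median 0.30). Over all genes tested 15.9% were called higher, and 1 of 4 is near that share. The slides gave the same direction for most genes but fewer calls. In the fit blocked by slide, 12 genes were called higher (15.8% of all genes), on slide 1 alone 8 were higher (8.40% of all genes), and on slide 2 alone 2, S100a8 and S100a9 (2.77% of all genes). The changes were above 0 for all 21 genes on slide 1 and for 19 on slide 2, Mrc1 (-0.19) and Cx3cr1 (-0.04) being the exceptions. In limma the genotype by slide term was called for 0 of the 21 genes, with 1 at an unadjusted p under 0.05, against 4.08% of all genes tested. Without control 10, 11 genes were called higher.

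In every mutant the macrophage and myeloid genes lay above the control mean by their median. Per sample, the median difference of the 15 genes from the control mean lay between 0.19 and 0.53 for mutants, against -0.22 and 0.18 for controls, and the lowest mutants were those of slide 2 (0.19 and 0.24), against 0.38 to 0.53 in the mutants of slide 1. Control 10 was the highest control at 0.18, and also the highest control for the skeletal muscle genes, whose median difference lay between 1.26 and 2.23 for mutants, against -0.28 and 1.24 for controls. The part of muscle tissue in the marker changes was not tested. For the 4 pan-leukocyte genes the same measure lay between 0.07 and 0.66 for mutants, against -0.25 and 0.22 for controls, so the groups overlapped.

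**Figure D4:**
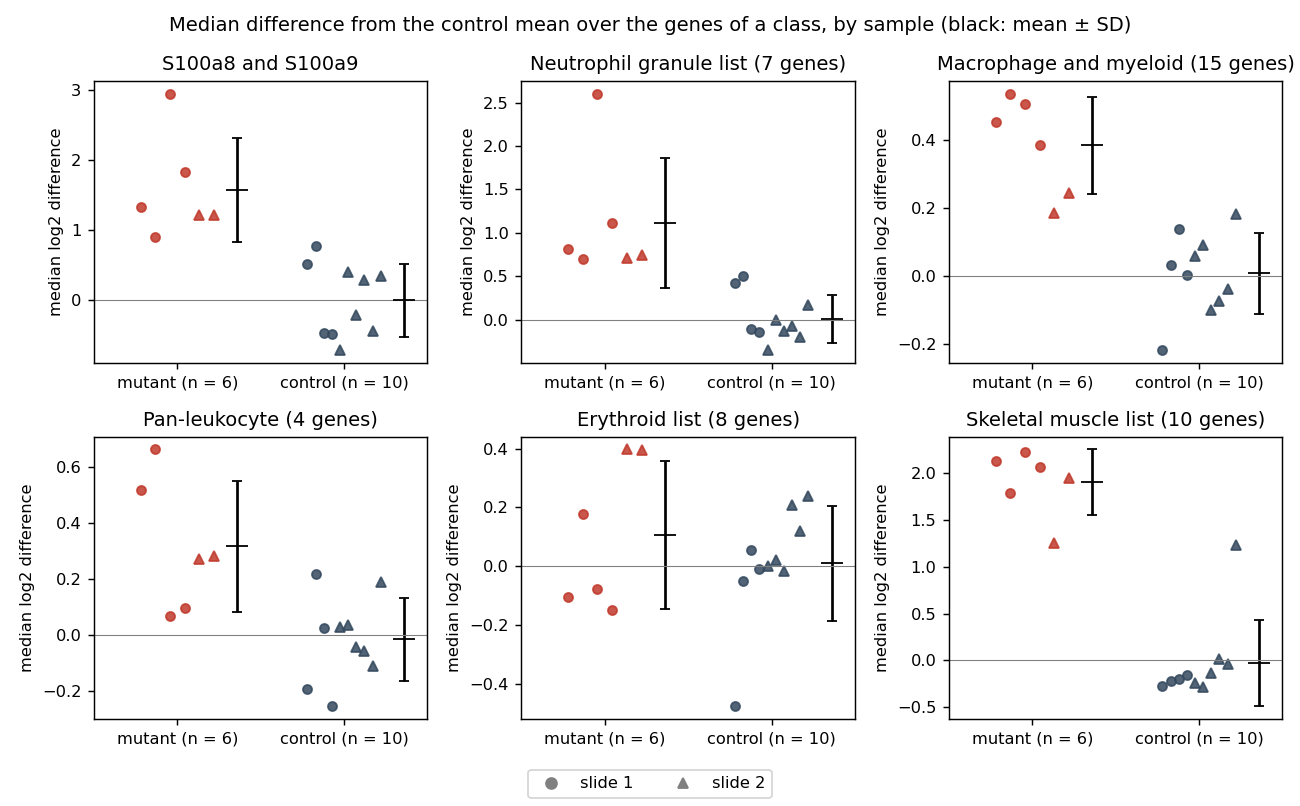
Each panel gives, for every sample, the median log2 difference from the control mean over the tested genes of 1 class or list, mutants left and controls right, with the mean and SD in black and slides by symbol. The groups are separate for S100a8 and S100a9 and for the macrophage and myeloid genes. They are also separate for the granule list, several of whose genes passed the filter through the mutants, and overlap for pan-leukocyte and erythroid genes; for skeletal muscle control 10 lies at 1.24, just under the lowest mutant at 1.26.

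Other macrophage markers were read from a list of 24 genes, of which 12 were tested. Of these, 5 were higher and 0 lower in mutants, with a median change of 0.36. Over all genes tested 15.9% were higher and 14.0% lower, the shares to set beside this count and the list counts below. Nckap1l, an actin regulator of blood cells, averaged 8.72 ± 0.12 in mutants and 7.91 ± 0.18 in controls (rise 0.81, limma adjusted p = 1.39e-06). Ms4a7, a tetraspan protein of tissue macrophages, averaged 7.80 ± 0.21 in mutants and 7.03 ± 0.28 in controls (rise 0.78, limma adjusted p = 0.000143). For both genes all mutants lay above all controls, and both were called within each slide. Folr2, a folate receptor of resident macrophages detected in 4 mutants and 3 controls, rose by 0.41 (limma adjusted p = 0.0367) and lost its call without any 1 of mutants 1, 2, 3 and 6 or of controls 4, 5, 6 and 7. The count of 5 was not stable: it was 2 without mutant 1, mutant 2, mutant 3, control 6 or control 7 and after cyclic loess, and 3 without control 1, control 4 or control 8.

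Markers of microglia, the macrophages of the brain, moved unevenly, with 3 of 7 tested genes higher and a median change of 0.20. Fcrls, an Fc receptor-like protein, averaged 8.43 ± 0.07 in mutants and 7.87 ± 0.19 in controls (rise 0.56, limma adjusted p = 6.82e-05). Sall1, a transcription factor of microglia that other developing tissues also express, rose by 0.68 (limma adjusted p = 4.11e-06), and Tmem119 by 0.26 (limma adjusted p = 0.0357). P2ry12, a purinergic receptor of microglia, changed by -0.24, and Siglech by -0.15; neither was called, and both were picked after their values were seen. Tmem119 lost its call without any 1 of mutants 1, 2, 4 and 5 or of controls 1, 4, 6, 7 and 9.

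Of a list of signals that recruit or maintain macrophages, 9 genes were tested and 3, all chemokines, were called higher. Not called were Ccl4 (0.46), Tgfb1 (0.28), Ccl9 (0.20), Csf1 (0.08), Cx3cl1 (-0.04) and Ccl12 (-0.18), all named after their values were seen. Another 7, Il34 and Csf2 among them, were not above background on any array. Cxcl12, a chemokine of stromal cells, rose by 0.59 (limma adjusted p = 0.00419), Ccl7, a monocyte chemokine, by 0.65 (limma adjusted p = 0.00737) and Cxcl16, a transmembrane chemokine, by 0.42 (limma adjusted p = 0.0175). Ccl7 was detected in 5 mutants but only 2 controls. It passed the filter largely through the mutants, so its call, which the count of 3 includes, supports nothing.

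Of 14 phagocytic receptors and bridging proteins tested, 5 were higher and 1 lower. Elmo1, which links engulfment receptors to Rac, rose by 0.51 (limma adjusted p = 0.000212), the receptor kinase Tyro3, detected on all 6 mutant but 3 control arrays, by 0.62 (limma adjusted p = 0.000395) and the integrin chain Itgb5 by 0.72 (limma adjusted p = 0.000661). These genes are also expressed outside macrophages. Tyro3 passed the filter through the mutants, so its call, which the count of 5 includes, supports nothing. Among 9 Fc receptor and ITAM signalling genes, 4 were higher and 1 lower. Ptpn6, the phosphatase SHP-1, rose by 0.49 (limma adjusted p = 3.47e-05) and the exchange factor Vav1 by 0.46 (limma adjusted p = 5.51e-05), both with no overlap, while the phospholipase Plcg2 fell by 0.62 (limma adjusted p = 0.000420).

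Of 16 lysosomal genes tested, 4 were higher and 2 lower, with a median change of 0.04, against 15.9% higher and 14.0% lower over all genes. Lamp2, a lysosomal membrane protein, rose by 0.28 (limma adjusted p = 0.00264) and Grn, progranulin, by 0.34 (limma adjusted p = 0.0170; 0.0520 without mutant 2), while the protease Ctsl fell by 0.67 (limma adjusted p = 3.45e-05). The count of genes called higher was 1 without mutant 2.

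Of the lymphocyte list 3 genes were tested and 10 were not above background on any array, Cd3e, Cd4 and Cd8a among them. Cd79a, a B cell receptor chain, was not above background in any mutant and was at least 2.33-fold lower (limma adjusted p = 1.37e-07). It was detected on all 10 control arrays and passed the filter through them alone, so its call supports nothing. Cd79b fell by 1.60 (limma adjusted p = 4.75e-06). The remaining gene, Rag1, had a change of 0.25 and was not called (limma adjusted p = 0.217); it was named after its values were seen. Hdc, the histamine-forming enzyme, was the only mast cell gene tested and fell by 2.49 (limma adjusted p = 1.29e-10), with 5 of that list not above background. Of 4 platelet genes, Itga2b was lower by the test, with a change of -0.41 (limma adjusted p = 0.00422). Of 4 dendritic cell and MHC class II genes, H2-DMb1 rose by 0.56 (limma adjusted p = 0.0130); the other 3 were not called, with changes of 0.20 for Zbtb46, -0.18 for H2-DMa and -0.12 for H2-Eb1, all named after their values were seen. Of 5 interferon response genes, Usp18 fell by 1.10 (limma adjusted p = 0.000144) and Rsad2 rose by 0.46 (limma adjusted p = 0.00960).

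**Figure D5:**
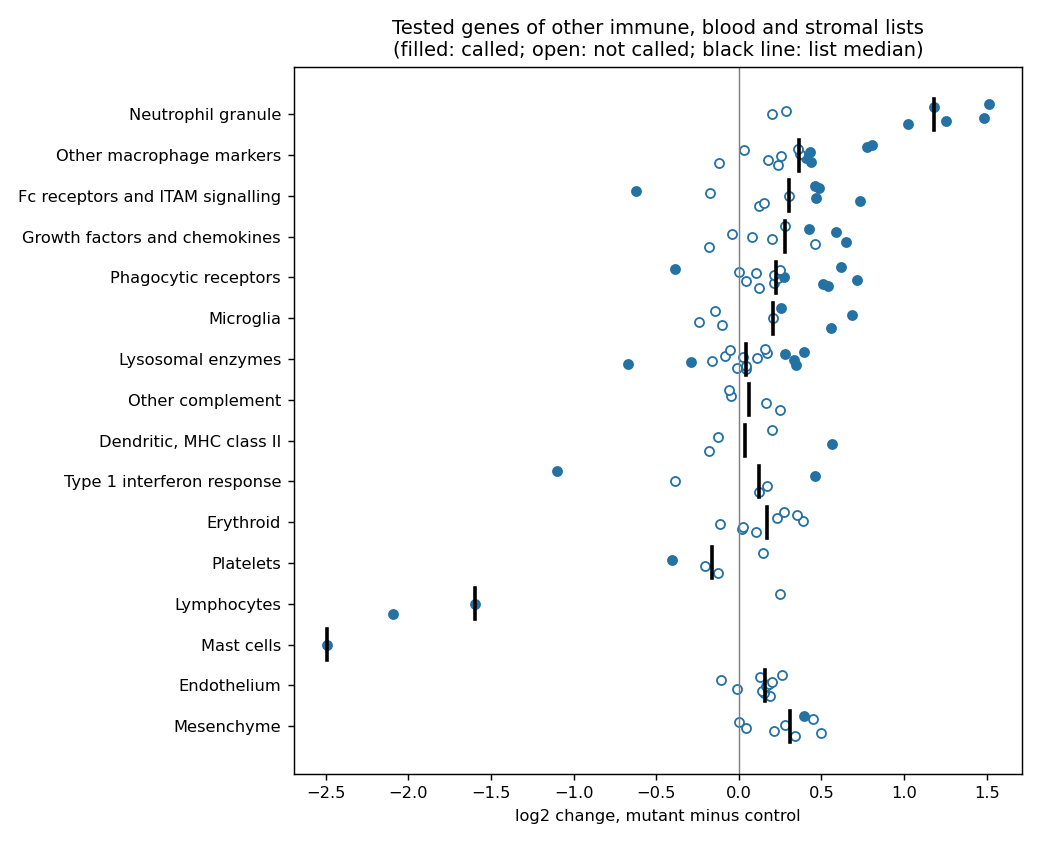
Each point is the log2 change, mutant minus control, of 1 tested gene of a list of other immune, blood or stromal genes; filled points were called by limma and the black line is the list median. The neutrophil granule list has its median at 1.18 and the endothelium list at 0.16. The lymphocyte list, with 3 genes tested and 1 of them above 0, has its median below 0. The mast cell list is 1 gene, also below 0. Both lists held too few tested genes to describe a cell type. Several granule genes passed the filter through the mutants, so the median of that list supports nothing.

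Genes of skeletal muscle and of the pituitary itself also changed in the same samples. All 10 skeletal muscle genes tested were higher in mutants (median change 1.83), with Tnnt1, the slow troponin T, up by 1.84 (limma adjusted p = 4.21e-07), Actc1 up by 4.78 (limma adjusted p = 1.72e-06) and Myod1, not above background in any control, at least 1.47-fold higher (limma adjusted p = 4.53e-08). Myod1, Actc1, Myog, Tnnc2 and Myh8 were detected on all 6 mutant but at most 3 control arrays and passed the filter through the mutants, so the count and median of this list support nothing. Of 8 pituitary genes tested, 1 was higher and 6 were lower (median change -2.61), including Tshb (-4.25, limma adjusted p = 8.35e-13) and Cga (-2.91, limma adjusted p = 5.34e-09). Of 10 endothelial genes, 0 were called by limma, with 1 at an unadjusted p under 0.05 (median 0.16), and of 8 mesenchymal genes, 1 was, Vim (rise 0.39, limma adjusted p = 0.0358; median 0.31), a call lost without any 1 of mutants 1 to 4 or of controls 5, 7 and 8. Of 3 astrocyte and pituicyte genes, Aqp4 rose by 1.17 (limma adjusted p = 2.51e-05) and Slc1a3 by 0.34 (limma adjusted p = 0.00635), while Aldh1l1, named after its values were seen, had a change of -0.52 and was not called (limma adjusted p = 0.0708, or 0.0426 with slide as a block). The part of these genes' cell types in the marker changes was not tested either.

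The windows before the start sites were compared over the marker genes as a description. The table held 24 of the 29 genes. On either strand, 16 of the 24 held GAGGAA at least once, against 25.85% of the 27025 genes of the table and 26.35% of the 7836 tested genes in it. Of the called genes 9 had a window, and 7 of these held it. The longer form GAGGAAGT, which overlaps it, was held by 3 of the 24 and by 2.79% of all genes, and TTGCNNAA by 4 of the 24 and by 10.84% of all genes. These motifs were chosen after the changes had been seen, PU.1 being known as a regulator of many myeloid genes, and a match does not show binding.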

How the data were processed

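Whole pituitary RNA of 16 embryo samples was measured on Illumina bead arrays. Per the labels' protocols, RNA was isolated with Trizol, purified on RNeasy columns and labelled with biotin. In the deposited raw data every one of 25697 probes has, per the file headers, an average signal intensity and a detection p-value. Per the submitters' processing notes GenomeStudio was used, in a version not given in the sources used here. The deposited detection p-value ranks a probe among the negative controls of its array. A second deposited set of intensity values, read from its shared median as normalised, served as an alternative only.

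Intensities were background-corrected with limma's nec (offset 16), put on a log2 scale and quantile-normalised, using R 4.3.3 with limma 3.58.1 and the data.table package, version 1.17.8. A probe was kept if its detection p-value was under 0.01 on 6 or more of the 16 arrays, which left 13813. Genotype was fitted with lmFit and eBayes. The Benjamini-Hochberg method adjusted p over these probes, and 0.05 was the threshold. Each of the 9682 genes was represented by its brightest kept probe, by the mean of all samples. Of the probes, 23978 carried 1 symbol in the platform annotation, 0 several, and 1719 are unnamed here; 23962 matched RefSeq (GRCm38.p6) by Entrez identifier. For a probe not above background in a group, the fold is a bound against the lowest detected signal of each array. The highest correlation between 2 arrays was 0.9933, and no arrays were merged.

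Named were all 29 marker genes, Insm1 and, of each other list, the 3 called genes with the smallest adjusted p. The marker genes and the lists were chosen with earlier results of these data known. The labels do not say whether samples came from separate embryos, so p-values measure the spread between samples, and the number of arrays limits the precision. The labels do not say that a replicate number marks a shared source, so the fit has no replicate block. Alternatives covered background correction, scaling, filter, variance model, array weights, slide, probes, threshold and single samples left out; those for genes of the other lists were added after seeing the data. The fit was tested on simulated data.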

Additional observations from a re-analysis of the deposited data

Results flagged for a closer look

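Among 118 groups of values examined, 6 held a sample far from the rest, and most of these flags fell on control 10. The groups share the same arrays, so the rate of 1 in 20 for independent groups does not apply. For the marker genes, C1qb in mutant 6 was 8.88, below 9.28 to 9.38 in the other mutants. Control 10 read 5.27 for Myod1 (4.36 to 4.74 in the other controls), 9.74 for Tnnt1 (8.31 to 8.87), 9.23 for Actc1 (4.66 to 5.55) and 13.84 for Tshb (14.20 to 14.59). Rsad2 in control 4 was 7.57, below 7.95 to 8.36 in the other controls.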

How the results depend on the processing

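S100a8 and S100a9 kept their call under every alternative run. Over all 21 genes and alternatives, 588 of 632 values kept direction and side of the threshold, 25 lost the call, 13 gained it and 6 changed sign. The sign changed for Mrc1 (-0.0058 with array weights, -0.19 on slide 2 alone, and, with single samples left out, -0.016 to 0.098, below 0 without mutant 4, control 1 or control 4) and for Cx3cr1 (-0.038 on slide 2 alone); neither was called. The marker genes called numbered 9 to 13 when single samples were left out, and the genes called overall 2461 to 2941 (higher 1251 to 1573, lower 1210 to 1385), with a median change of the markers of 0.35 to 0.42. Slide 1 alone gave 1757 genes, 813 higher; slide 2 alone gave 747 genes, 268 higher and 479 lower, and 2 marker genes, with fewer samples in each. An adjusted p under 0.01 gave 1850 genes, 902 higher, and 6 marker genes. The genotype by slide term was called for 1 gene after cyclic loess, against 0 otherwise; the cause was not tested. With a replicate block over replicates 1 to 6 of each group, 2971 genes and 11 marker genes were called, Apoe (limma adjusted p = 0.0130) and Cd53 (0.0351) gained and Laptm5 (0.0525) and Trem2 (0.0782) lost. Deviations of same-numbered samples correlated at 0.04 to 0.48, over 0.1 in 5 of 6 pairs. Among replicates 1 to 6, 5 of 6 mutants correlated best with the control of their own number. Same-numbered samples also shared a slide, whose effect was not removed, so pairing and slide cannot be told apart here. Outside the marker genes, Mmp9 changed sign with the replicate block (-0.042), in an alternative added after seeing the data. Probes of 5 marker genes were not above background, so differences there were not detectable.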
